A study of Homo sapiens with 6 samples.

Results

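The genes described here are the 4 latent TGF-beta binding proteins (LTBP1, LTBP2, LTBP3 and LTBP4) and 6 core genes of TGF-beta signalling (the ligands TGFB1 and TGFB2, the receptors TGFBR1 and TGFBR2, the signal transducer SMAD3 and the inhibitory SMAD7), 10 genes of the 60664 in the table. They were taken by gene symbol, and the group was chosen from earlier results on the same Amuc_0904 and buffer libraries, in which LTBP3 stood out. The difference between the groups is therefore given for these 10 genes as a description, and the p-values beside it are not independent support. All 10 symbols occurred once in the table, and 9 were tested, having reached 1 TPM in 3 or more libraries. TGFB2 stayed below that level.

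RNA was sequenced from SW480, an established human colorectal adenocarcinoma line labelled as wild type, in 3 libraries of cells that received buffer and 3 of cells that received Amuc_0904. Amuc_ prefixes the gene tags of Akkermansia muciniphila, a bacterium of the gut mucus layer. What preparation was added, at which dose and for how long, is not stated in the labels. All libraries come from a single cell line, and the labels do not say whether replicates were separate cultures, so p-values measure only the spread between these libraries, which may be technical. Expression is in TPM, the transcript abundance scaled by transcript length and by the library total, so levels of different genes can be compared within a library.

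TGF-beta is secreted in a latent form, in which the mature ligand stays bound to its propeptide. A latent TGF-beta binding protein can be linked to this propeptide and places the complex in the extracellular matrix, from which integrins or proteases release the ligand. The free ligand binds the type II receptor, which activates the type I receptor, and this phosphorylates SMAD2 and SMAD3, which act in the nucleus together with SMAD4. In the intestine the pathway restrains epithelial growth, and it is often interrupted in colorectal cancer. SW480 is widely used as a line deficient in SMAD4.

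Sequence before a RefSeq start of LTBP2, LTBP3 and LTBP4 is shown because these 3 genes had the lowest fitted differences among the 10. The RefSeq promoter table (GRCh38.p14) matched all 10 genes, and the 250 bases before each listed start were searched on both strands for 4 motifs. These were the SMAD box (CAGAC or GTCTG), the SMAD palindrome (GTCTAGAC), the GC box bound by Sp1 family factors (GGGCGG or CCGCCC) and the AP-1 site (TGAGTCA or TGACTCA). Stretches that overlap a GENCODE 29 exon were left out of the print, so LTBP2 is shown for 109 bases, LTBP3 for 244 and LTBP4, at the second of its 2 listed starts, for 250. Sequences run 5′ to 3′ on the strand of the gene, and capitals mark GC boxes. In GENCODE 29, LTBP3 extends to position 65558930 and LTBP4 begins at 40592883, so their printed stretches lie inside the annotated genes. The LTBP2 stretch lies outside the annotated gene.

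LTBP2, chr14:74612379-74612487, minus strand: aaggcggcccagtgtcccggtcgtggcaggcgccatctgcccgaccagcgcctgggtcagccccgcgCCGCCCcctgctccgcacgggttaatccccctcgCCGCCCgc

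LTBP3, chr11:65558360-65558603, minus strand: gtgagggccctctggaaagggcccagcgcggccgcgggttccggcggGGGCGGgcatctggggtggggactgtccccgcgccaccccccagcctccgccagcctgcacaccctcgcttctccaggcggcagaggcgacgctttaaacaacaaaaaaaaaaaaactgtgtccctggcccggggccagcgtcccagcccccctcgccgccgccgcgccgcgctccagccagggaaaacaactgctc

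LTBP4, chr19:40601119-40601368, plus strand: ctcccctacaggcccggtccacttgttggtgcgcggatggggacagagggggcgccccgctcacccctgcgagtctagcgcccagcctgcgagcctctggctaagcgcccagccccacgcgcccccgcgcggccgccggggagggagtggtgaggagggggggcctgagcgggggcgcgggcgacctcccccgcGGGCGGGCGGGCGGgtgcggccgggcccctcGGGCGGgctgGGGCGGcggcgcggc

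The printed stretches held 2, 1 and 5 GC boxes in that order, of which 3 in LTBP4 overlap each other, and 0 SMAD boxes. Their G and C content was 77.1%, 70.5% and 81.6%. Over whole windows at the first listed start of each gene, the 27305 windows of the table had a median of 58.0%, LTBP2 had 68.8%, LTBP3 70.4% and LTBP4 45.2%, and 6 of the 10 genes lay above the median. At their first listed starts, 5 of the 10 genes had a GC box (LTBP2, LTBP3, LTBP4, TGFB1 and SMAD3), a motif found in 42.3% of all windows. A SMAD box was present at 5 of the 10 (LTBP1, LTBP4, TGFB2, TGFBR1 and SMAD7), against 37.8% of all windows. The SMAD palindrome, present in 0.176% of windows, and the AP-1 site, present in 4.16%, were found at 0 of the 10 first starts. These counts describe letters in the reference sequence and show no binding.

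LTBP3 was the most abundant of the 10 genes and the only member past the threshold of the fit across all genes. It encodes a binding protein that attaches to latent TGF-beta and is known for its part in bone and tooth development. Its level was 71.9, 96.7 and 74.3 TPM in buffer replicates 1, 2 and 3 and 45.1, 50.0 and 39.9 TPM in Amuc_0904 replicates 1, 2 and 3. All 3 treated libraries lay below all 3 buffer libraries, and buffer replicate 2 stood above the other buffer libraries. LTBP3 fell 1.80-fold, from 81.0 ± 13.7 to 45.0 ± 5.07 TPM (SD, n = 3 per group; limma log2 fold change -0.83, SE 0.13, adjusted p = 0.026). Omitting buffer replicate 2 or 3, or Amuc_0904 replicate 1 or 3, ended the LTBP3 call (adjusted p between 0.054 and 0.087), as did centring libraries on their medians (adjusted p = 0.059).

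LTBP4, a binding protein known for its role in elastic fibre assembly, was the second most abundant. It measured 42.0, 52.2 and 44.6 TPM in the buffer libraries and 29.4, 34.9 and 34.0 TPM in the treated libraries. The groups again did not overlap, and buffer replicate 2 was again the highest library. The buffer mean was 46.3 ± 5.32 TPM against 32.8 ± 2.95 TPM after Amuc_0904, and the log2 fold change of -0.48 (SE 0.10) did not pass (limma adjusted p = 0.058).

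LTBP2 differs from the other 3 family members in that its protein is not known to bind latent TGF-beta. Its level was 20.9, 24.3 and 19.8 TPM in buffer libraries and 13.1, 15.6 and 15.4 TPM in treated libraries, with no overlap between the groups. The log2 fold change was -0.53 (SE 0.11, limma adjusted p = 0.053).

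LTBP1, the founding member of the family, was barely expressed, at 1.44, 1.48 and 1.62 TPM in buffer libraries and 0.83, 1.19 and 1.15 TPM in treated libraries. The groups did not overlap, but at this level the pseudocount of 1 TPM compresses the difference, which was -0.29 on the log2(TPM + 1) scale (95% interval -0.64 to 0.05, limma adjusted p = 0.31) and -0.49 with a pseudocount of 0.1.

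**Figure D1:**
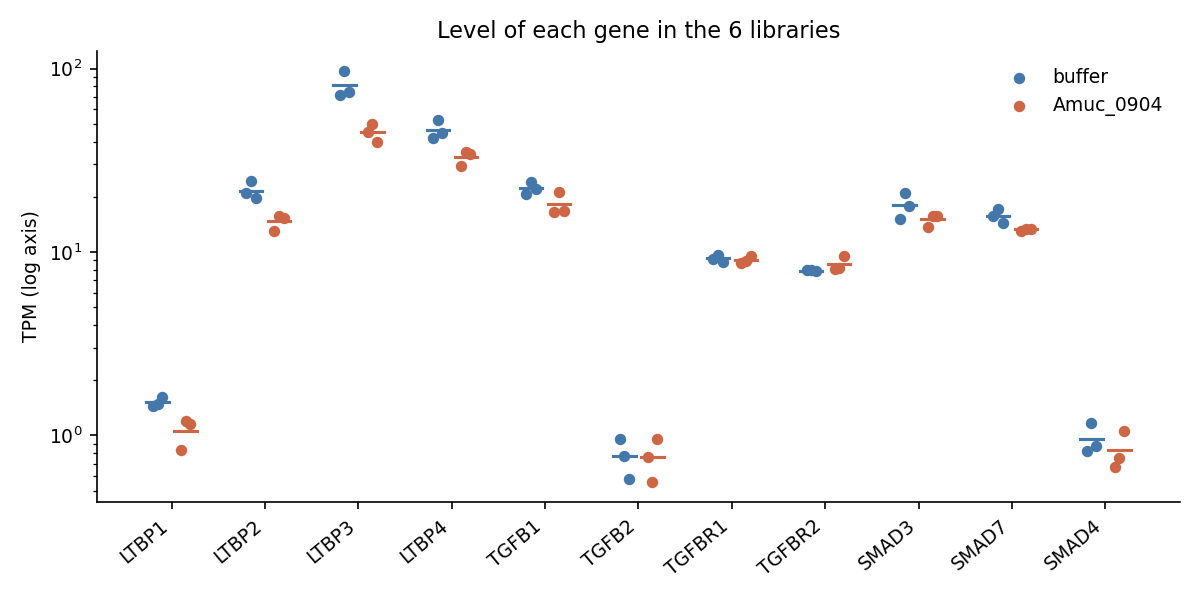
TPM on a log axis for the 10 genes and SMAD4 in each library (points; buffer in blue, Amuc_0904 in orange) with the group mean (line). The 3 treated libraries lie below the 3 buffer libraries for LTBP1, LTBP2, LTBP3, LTBP4 and SMAD7, while TGFB2, TGFBR1 and SMAD4 overlap.

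Summed over the family, LTBP transcripts came to 136, 175 and 140.3 TPM in buffer replicates 1, 2 and 3 and to 88.4, 102 and 90.5 TPM in Amuc_0904 replicates 1, 2 and 3. The make-up of the sum also differed between the groups. LTBP3 held 53.7% ± 1.43 of the sum in buffer and 48.1% ± 3.57 in treated libraries, and LTBP4 held 30.8% ± 0.946 and 35.1% ± 2.26 (SD, n = 3). For both genes the ranges of the share did not overlap, with the highest LTBP3 share in a treated library at 51.0% and the lowest in a buffer library at 52.8%. LTBP3 was 3.61 ± 0.343 times as abundant as TGFB1 in buffer and 2.48 ± 0.212 times in treated libraries. These shares and ratios use the same values as the fold changes above and add no independent evidence.

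**Figure D2:**
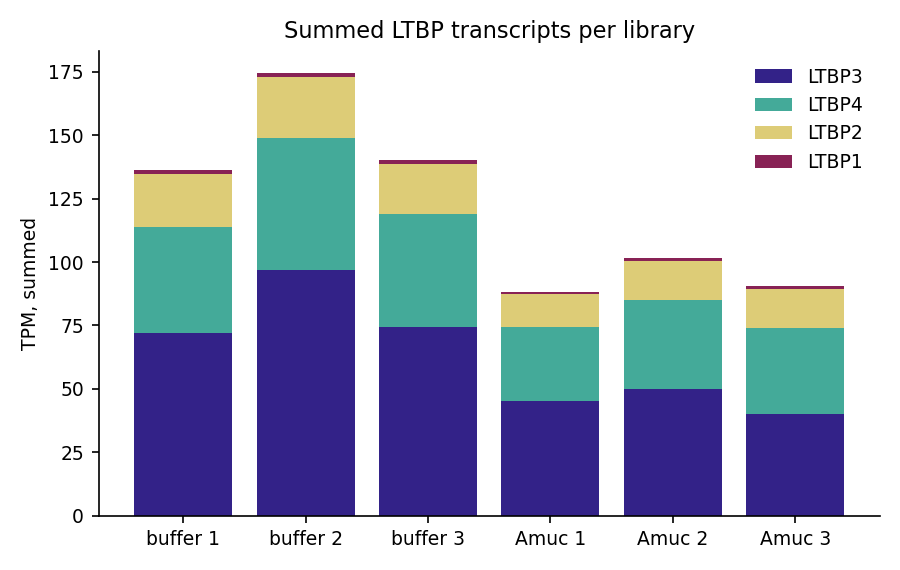
Stacked TPM of LTBP3, LTBP4, LTBP2 and LTBP1 (bars, linear axis from 0) in each library, with Amuc standing for Amuc_0904. The treated libraries reach 88.4 to 102 TPM and the buffer libraries 136 to 175 TPM, and LTBP3 is the largest block in each.

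Of the ligands, TGFB1 was the expressed form. It measured 20.7, 24.2 and 22.1 TPM in buffer libraries and 16.5, 21.3 and 16.8 TPM in treated libraries, and Amuc_0904 replicate 2 lay within the buffer range. The log2 fold change of TGFB1 was -0.29 (95% interval -0.54 to -0.03, limma adjusted p = 0.20). TGFB2 was listed between 0.58 and 0.96 TPM in buffer libraries and between 0.56 and 0.96 TPM in treated libraries, with group means of 0.77 and 0.76 TPM. TGFB1 shares its locus with 4 protein-coding genes on the other strand, and the strand protocol is not given in the sources used here, so its values may include reads from these neighbours.

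The 2 receptors had the smallest differences of the 9 tested genes. TGFBR1, the type I receptor kinase, was at 9.19, 9.62 and 8.85 TPM in buffer libraries and 8.71, 8.92 and 9.56 TPM in treated libraries, and the groups overlapped. Its log2 fold change was -0.02, with a 95% interval from -0.23 to 0.18 and a sign that turned under several scalings. TGFBR2, the ligand-binding type II receptor, was at 7.95, 7.93 and 7.88 TPM in buffer libraries and 8.05, 8.13 and 9.54 TPM in treated libraries. It was the only member with all treated libraries above all buffer libraries, and buffer and treated values nearly touched. Its interval ran from -0.13 to 0.33 (limma adjusted p = 0.62).

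SMAD3, a receptor-activated transducer, measured 15.2, 21.0 and 17.8 TPM in buffer libraries and 13.7, 15.8 and 15.7 TPM in treated libraries. The groups overlapped at their edges, and buffer replicate 2 was the highest (log2 fold change -0.24, 95% interval -0.52 to 0.04, limma adjusted p = 0.31). SMAD7, an inhibitory SMAD that the pathway itself induces, was at 15.7, 17.1 and 14.5 TPM in buffer libraries and at 13.1, 13.4 and 13.4 TPM in treated libraries. All treated values of SMAD7 were lower than all buffer values, and the log2 fold change was -0.23 (SE 0.09, limma adjusted p = 0.19). SMAD4, the shared partner of the activated SMADs, was listed at 0.82, 1.17 and 0.87 TPM in buffer libraries and 0.67, 0.75 and 1.06 TPM in treated libraries. It lay far under SMAD2 (20.3 ± 1.05 TPM in buffer) and SMAD3 (18.0 ± 2.90 TPM) in these cells and was too low to be tested.

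In buffer cells the order of levels was LTBP3, LTBP4, TGFB1, LTBP2, SMAD3, SMAD7, TGFBR1, TGFBR2, LTBP1 and TGFB2. The ranges of TGFB1 and LTBP2, of LTBP2 and SMAD3, and of SMAD3 and SMAD7 overlapped, so these neighbours are not told apart, while all other neighbours had separate ranges over the 3 libraries.

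Counted over the 9 tested members, 1 was called lower (LTBP3) and 0 higher, where 0.999% of all 14421 tested genes were called lower and 0.368% higher. In 5 of the 9 all treated libraries lay below all buffer libraries, and in 1 they lay above. These patterns occurred in 20.1% and 7.00% of all tested genes. The median log2 fold change was -0.29 over the 9 members and -0.06 over all tested genes. When only genes of at least 5 TPM in at least 3 libraries were tested, LTBP2, LTBP3 and LTBP4 were all called lower (adjusted p = 0.033, 0.013 and 0.036), and 3.44% of the 10292 genes then tested were called lower.

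**Figure D3:**
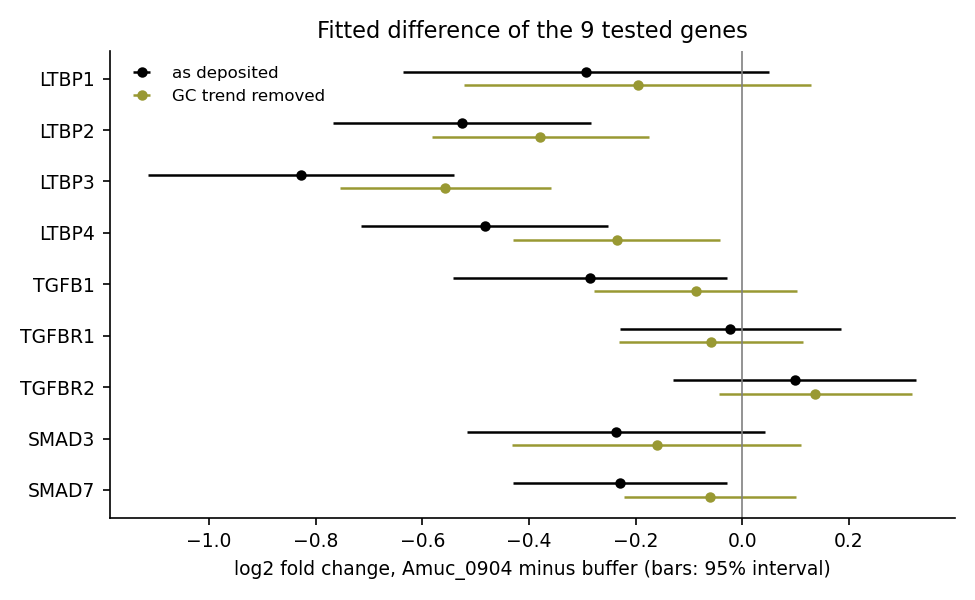
Fitted log2 fold change (Amuc_0904 minus buffer, points) with its 95% interval (bars) for the 9 tested members, from the deposited values (black) and after the GC content trend was removed per library (olive). LTBP3 has the lowest value in both, -0.83 and -0.56. The intervals of LTBP1, TGFBR1, TGFBR2 and SMAD3 include 0 in both, and those of TGFB1 and SMAD7 include 0 after the trend was removed. Removing the trend also brings libraries to a common mean.

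Transcript GC content moved with these differences. The slope of log2 expression with GC content ran from 0.07 to 0.16 per 10 percentage points in buffer libraries and from -0.04 to 0.07 in treated libraries, highest in buffer replicate 2 and lowest in Amuc_0904 replicate 3. Tested genes were ranked by GC content and cut into 10 equal groups. In the group richest in GC (61.7% to 83.7%) the median log2 fold change was -0.22, and in the poorest (28.7% to 38.8%) it was 0.05. LTBP3 (67.8% GC), LTBP4 (66.7%) and TGFB1 (63.5%) belong to the richest group, and LTBP2 has 57.2%. With the trend removed, the log2 fold change of LTBP3 was -0.56 and kept its call (limma adjusted p = 0.037), that of LTBP4 went from -0.48 to -0.24 (adjusted p = 0.23), that of LTBP2 from -0.53 to -0.38 (adjusted p = 0.11), and that of TGFB1 from -0.29 to -0.09 (adjusted p = 0.62). For SMAD7 it went from -0.23 to -0.06 (adjusted p = 0.69). Removing the trend also brings libraries to a common mean, so these shifts are not due to GC content alone. Centring libraries on their medians, without GC removal, gave -0.75 for LTBP3, -0.40 for LTBP4 and -0.45 for LTBP2. It gave -0.20 for TGFB1 and -0.15 for SMAD7.

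**Figure D4:**
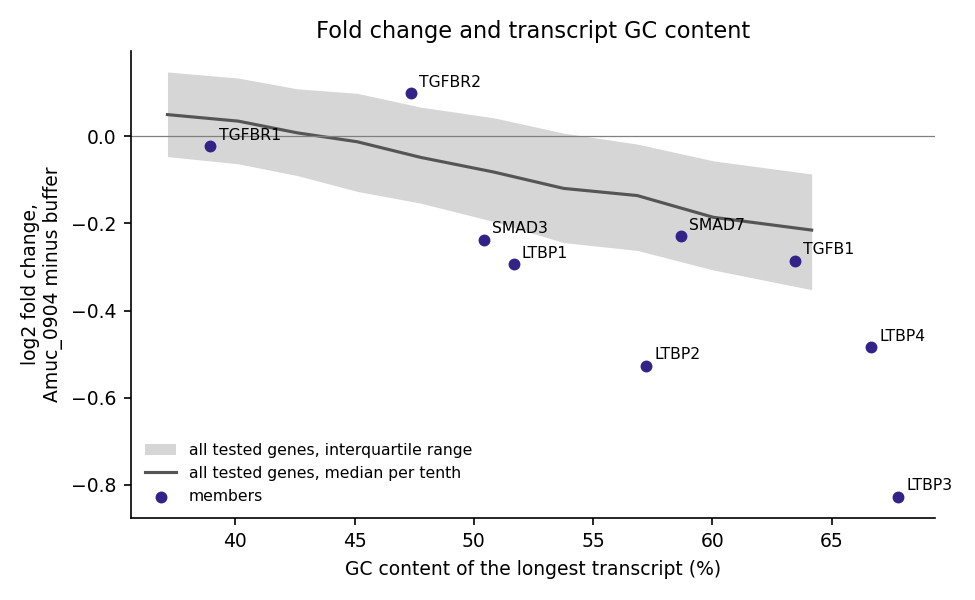
Log2 fold change (Amuc_0904 minus buffer) against the GC content of the longest transcript for the 9 tested members (points), with the median (line) and interquartile range (band) of all tested genes in 10 groups of GC content. The line runs from 0.05 in the group poorest in GC to -0.22 in the richest, LTBP1, LTBP2 and SMAD3 lie below the band, TGFBR2 lies above it, and LTBP3 and LTBP4 lie to the right of its end and lower than its lowest edge.

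The wider pathway was described by 7 lists of 142 further genes, of which 141 were in the table and 88 were tested. Over all 88, 1 was called higher and 1 lower, where 0.368% of all tested genes were called higher and 0.999% lower. Of the 88, 59 (67.0%) had a negative and 29 a positive log2 fold change, where 62.5% of all tested genes were negative. The median was -0.09, near the -0.06 of all genes.

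Genes that hold or release latent TGF-beta gave the 1 call on the lower side. Of 13 tested, ITGB5 fell and 12 did not pass (median -0.11). ITGB5, which pairs with the alpha v integrin subunit that can bind the TGF-beta propeptide, was at 137, 167 and 165 TPM in buffer libraries and at 112, 111 and 109.7 TPM in treated libraries. The groups were well apart, and the treated libraries were close to each other (log2 fold change -0.49, SE 0.08, limma adjusted p = 0.036). The ITGB5 call was lost in 5 of the 6 fits that left out a library, the exception being buffer replicate 1 (adjusted p up to 0.14). In these 6 fits the log2 fold change of ITGB5 was between -0.58 and -0.44. The call was also lost when libraries were only centred on their medians (log2 fold change -0.41, limma adjusted p = 0.096). With the GC trend removed, which also brings libraries to a common mean, it was lost as well (-0.38, adjusted p = 0.088). FURIN, the protease that cleaves the propeptide from TGF-beta, averaged 56.6 ± 5.59 TPM with buffer against 42.3 ± 1.61 TPM with Amuc_0904 (adjusted p = 0.055). Removing the GC trend took the log2 fold change of FURIN from -0.41 to -0.23 (limma adjusted p = 0.17). Median centring alone took it to -0.33 (limma adjusted p = 0.0955). ITGB1 averaged 63.5 ± 2.99 TPM with buffer and 67.4 ± 8.97 TPM with Amuc_0904. Named after its values were seen, MMP9, a matrix protease, was the furthest in the upward direction, with 0.717 ± 0.238 TPM for buffer against 1.99 ± 0.259 TPM for Amuc_0904 (log2 fold change 0.81, limma adjusted p = 0.057). MMP9 lay under 1 TPM in every buffer library and met the 1 TPM filter only through its treated libraries. Its difference therefore gives no independent support. Also named after their values were seen, the integrin subunits ITGB6 and ITGB8, the main integrin activators of latent TGF-beta in epithelia, were listed at 0.51 and 0.407 TPM in buffer, and LRRC32, which tethers latent TGF-beta on cell surfaces, at 0.083 TPM.

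The list of other ligands of the family also holds BMP1, a protease despite its name. All 10 tested genes of the list had negative log2 fold changes, between -0.70 and -0.17, against 62.5% of all tested genes, and 0 passed (median -0.29). The 2 lowest, named after their values were seen, were AMH, which encodes anti-Mullerian hormone (log2 fold change -0.70, limma adjusted p = 0.10), and INHA, an inhibin subunit gene (-0.53, adjusted p = 0.10), both under 5 TPM. With the GC trend removed, AMH was at -0.31 (limma adjusted p = 0.47) and INHA at -0.34 (adjusted p = 0.26). Median centring alone gave -0.62 for AMH and -0.45 for INHA. BMP7, BMP4 and GDF11 had the highest levels of the list. BMP7 averaged 94.2 ± 8.46 TPM with buffer against 73.8 ± 10.9 TPM with Amuc_0904 (limma adjusted p = 0.13), BMP4 at 59.6 ± 2.95 and 51.7 ± 1.47 TPM (adjusted p = 0.14), and GDF11, at 14.3 ± 2.32 TPM with buffer, had a log2 fold change of -0.34 (SE 0.12, adjusted p = 0.17). Of the secreted ligand inhibitors 2 of 15 were tested, TWSG1 and FSTL3, and 0 passed (log2 fold change -0.12 and -0.40).

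Among 9 tested receptors and co-receptors 0 passed (median -0.10). BAMBI, a decoy receptor without a kinase domain, had the highest level and was at 73.8, 67.1 and 64.6 TPM in buffer libraries and 56.7, 52.7 and 52.4 TPM in treated libraries. Its groups did not overlap (log2 fold change -0.34, SE 0.07, limma adjusted p = 0.060). The activin receptor ACVR1B was at 22.5 ± 1.39 and 21.3 ± 1.28 TPM, and TGFBRAP1 at 21.2 ± 2.32 and 19.2 ± 1.48 TPM.

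Of the other SMADs 4 were tested and 0 passed (median 0.11). SMAD2, which carries the same signal as SMAD3, was at 20.2, 19.2 and 21.3 TPM in buffer libraries and 23.7, 23.7 and 22.7 TPM in treated libraries, with all treated values higher (log2 fold change 0.20, limma adjusted p = 0.18). SMAD5 and SMAD1, transducers of BMP signals, averaged 17.3 ± 2.13 and 9.31 ± 0.516 TPM with buffer against 16.2 ± 1.27 and 9.87 ± 1.01 TPM with Amuc_0904. Of 24 tested SMAD regulators 0 passed (median -0.04). The most abundant were FKBP1A, which binds the type I receptor (370 ± 20.5 TPM for buffer, 388 ± 9.43 TPM for Amuc_0904), the ubiquitin ligase gene STUB1 (137 ± 1.22 and 126 ± 8.90 TPM) and the endosomal sorting gene HGS (121 ± 14.6 and 108 ± 27.7 TPM).

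Among 26 tested target genes of TGF-beta or BMP signalling 1 rose, 0 fell and 25 did not pass (median -0.06). IER3, an early response gene that many stimuli other than TGF-beta induce, was at 299, 303 and 299 TPM in buffer libraries and 363, 369 and 378 TPM in treated libraries. The groups were far apart compared with the spread within each (log2 fold change 0.30, SE 0.05, limma adjusted p = 0.035). Each of the 6 fits that left out a library lost the IER3 call (adjusted p up to 0.14), with log2 fold changes between 0.28 and 0.31. Over all 15 alternative fits of IER3, 6 kept the call and 9 lost it. With the GC trend removed it was kept (log2 fold change 0.47, limma adjusted p = 0.013). The other abundant targets were ID2, a BMP-responsive inhibitor of differentiation factors (863 ± 26.7 and 713 ± 78.8 TPM, adjusted p = 0.11), and VIM, which encodes vimentin (661 ± 30.8 and 626 ± 25.3 TPM, adjusted p = 0.49).

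TGFBI and PMEPA1, TGF-beta targets named after their values were seen, did not pass. TGFBI, a TGF-beta-induced matrix protein gene, averaged 262 ± 8.04 TPM with buffer against 280.3 ± 20.1 TPM with Amuc_0904 (limma adjusted p = 0.45). PMEPA1, a feedback inhibitor, averaged 31.8 ± 3.77 and 27.7 ± 2.77 TPM (limma adjusted p = 0.35). The lowest log2 fold change of the target list, also named after its values were seen, was that of ACTA2 (-0.51, limma adjusted p = 0.076). ACTA2 averaged 5.76 ± 0.764 TPM with buffer against 3.71 ± 0.182 TPM with Amuc_0904. Of the 26 tested targets, 17 had a negative and 9 a positive log2 fold change.

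**Figure D5:**
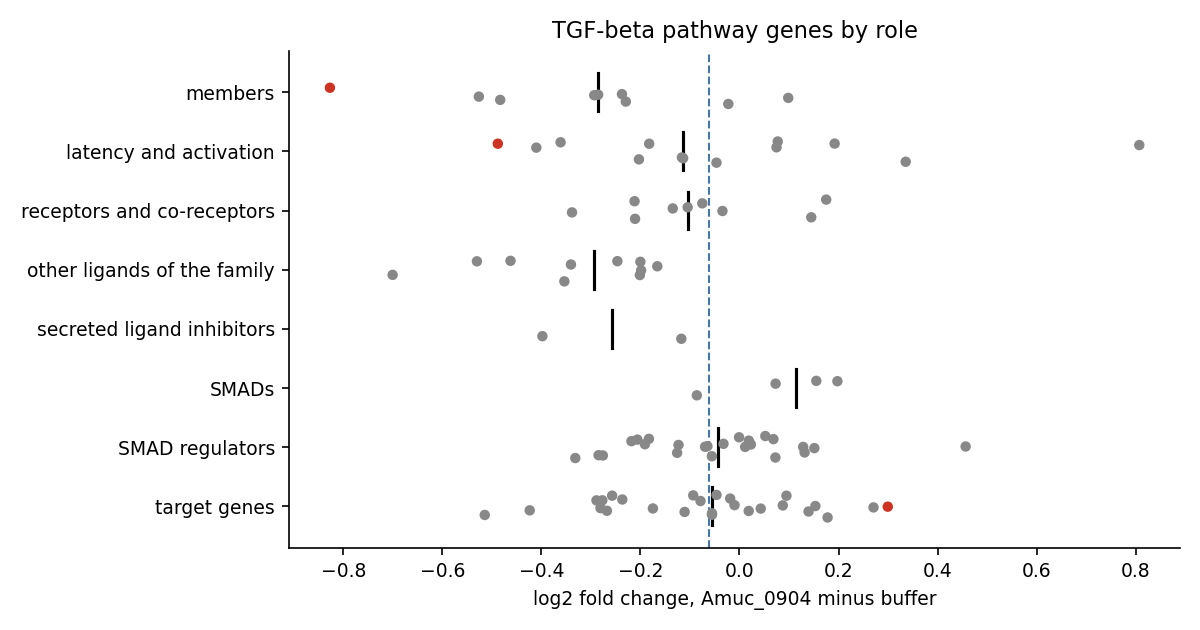
Log2 fold change (Amuc_0904 minus buffer) of each tested gene (points, red where the adjusted p is under 0.05) in the 9 members and the 7 lists, with the median of each list (black line) and of all tested genes (dashed line, -0.06). LTBP3, ITGB5 and IER3 are the red points, and all 10 tested members of the list of other ligands lie below 0.

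Across the 6 libraries, the 4 genes of at least 5 TPM whose log2 levels followed LTBP3 most closely were ADGRE5, MCM5, VASN and LRP8 (Pearson r of 0.998, 0.997, 0.997 and 0.997). Against the same 9857 genes, the r of LTBP4 with LTBP3 was 0.94 and that of LTBP2 was 0.94, ranks 532 and 563. SMAD7 reached 0.93 (rank 705), TGFB1 0.88, LTBP1 0.79 (rank 2127) and SMAD3 0.79. TGFBR1 was at 0.26, TGFB2 at -0.13 and TGFBR2 at -0.67. These coefficients rest on 6 libraries that share the treatment difference and the GC slopes and are given without a test.

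The label of the cells was checked against marker genes. Of 11 colorectal epithelial markers 5 were at 1 TPM or more in every library (EPCAM, KRT8, KRT18, KRT19 and CDX2), while VIL1, KRT20, CDX1, CDH17, LGALS4 and GPA33 had group means under 1 TPM. The summed level of the 11 was 7900 to 8143 TPM across buffer and 7088 to 7377 TPM across Amuc_0904 libraries, and the part of this shift in the results above was not tested. LTBP genes are abundant in fibroblasts, and of 9 fibroblast markers DCN and FAP were at 0 in every library and COL1A1 alone was at 1 TPM or more in all 6. The 9 summed to between 2.42 and 4.16 TPM with buffer and between 1.74 and 2.30 TPM with Amuc_0904. Of 7 leukocyte markers PTPRC was at 0 in every library and CD14 alone was at 1 TPM or more in all 6 (1.06 to 2.24 TPM), and the 7 summed to between 3.55 and 4.50 TPM with buffer and between 3.26 and 4.45 TPM with Amuc_0904. Of 4 endothelial markers KDR was at 0 throughout, and the 4 summed to between 0.25 and 0.80 TPM with buffer and between 0.16 and 0.54 TPM with Amuc_0904. In bulk RNA a lower level in each cell and fewer cells that express a gene cannot be told apart.

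In the GRCh38 annotation of GENCODE 29, LTBP3 (ENSG00000168056) lies on chromosome 11 from 65538805 to 65558930 and LTBP4 (ENSG00000090006) on chromosome 19 from 40592883 to 40629818, and neither overlaps another gene. LTBP2 (ENSG00000119681), on chromosome 14 from 74498170 to 74612378, overlaps 1 long noncoding RNA gene on the other strand. SMAD7, on chromosome 18 from 48919853 to 48952052, overlaps none, and LTBP1, on chromosome 2 from 32946972 to 33399509, overlaps 1 gene on its own strand and 3 on the other. TGFB1 lies on chromosome 19 from 41301587 to 41353911.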

How the data were processed

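TPM per gene are the authors' deposited values, quantified with RSEM per the labels. HISAT2, StringTie and edgeR are listed in the submitters' processing notes without role or version, as is the mouse build GRCm38.p6, although the gene identifiers are human, so the annotation behind the values is uncertain. Each library sums to between 996107 and 997036 TPM, and 14244 to 14586 genes per library reach 1 TPM. TPM keeps no read number, so the depth is unknown and no counting interval is given.

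Values were taken as log2(TPM + 1). Genes with a TPM of at least 1 in at least 3 of the 6 libraries (14421) entered a two-sided limma fit of Amuc_0904 minus buffer (version 3.58.1, R 4.3.3, trended empirical Bayes moderation), with Benjamini-Hochberg adjustment over all of them and a threshold of 0.05. On this fit 144 genes were lower, 53 higher, and 3001 had an unadjusted p under 0.05. The members, the pathway lists and the alternatives were chosen with earlier results of these data known. Named genes were the 10 members, SMAD4, every pathway gene past the threshold and the 3 most abundant tested genes of each list; others are marked as named after their values were seen. Of the 142 listed pathway genes, 141 were matched. Some results are not reported here. DCN and COL1A1 are in both a pathway list and the fibroblast markers.

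GC content and length are those of the longest GENCODE 29 transcript, with values for 99.0% of tested genes. Trends were removed per library by loess with a span of 0.3, which also brings libraries to a common mean. The fit was repeated with median centring, a 5 TPM filter, no filter, a 0.1 pseudocount, quantile normalization, leaving out ribosomal protein and mitochondrial genes, a replicate block and leaving out each library. The workflow was tested on simulated data. Python 3.11.15 and matplotlib 3.10.9 made the figures.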

Additional observations from a re-analysis of the deposited data

How the results depend on the processing

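The log2 fold change of LTBP3 was negative in all 15 alternative fits (-0.91 to -0.56) and past the threshold in 8. Adjusted p was above 0.05 with no filter on low TPM (log2 fold change -0.83, adjusted p = 0.14), with libraries centred on their medians (-0.75, adjusted p = 0.059) and with the length trend removed (-0.74, adjusted p = 0.065). Without each library in turn the log2 fold change was between -0.91 and -0.69. Adjusted p was then 0.0497 without buffer replicate 1, 0.0499 without Amuc_0904 replicate 2, and between 0.054 and 0.087 without any of the others. LTBP1, LTBP2, LTBP4, TGFB1, SMAD3 and SMAD7 were negative and TGFBR2 positive in every alternative fit that tested them (LTBP1 was not tested with the 5 TPM filter). TGFBR1 turned positive with centring (0.058), quantile normalization (0.057), ribosomal protein and mitochondrial genes left out (0.0017) and length removal (0.062), and lay between -0.058 and 0.0055 without single libraries.

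Members called lower numbered 0 with no filter, with centring and with length removal, 3 with the 5 TPM filter, and 0 or 1 without single libraries. Other pathway genes called lower numbered 5 of 68 with the 5 TPM filter (BAMBI, BMP1, FURIN, ITGB5 and USP11), where 3.44% of all genes then tested were called lower. They numbered 0 with no filter, centring, quantile normalization, GC removal or length removal, and 0 or 1 without single libraries. Other pathway genes called higher numbered 3 with GC removal (IER3, JUNB and MMP9), where 74 of 14277 genes were called higher. MMP9 entered that fit only through its treated libraries. Calls on the higher side numbered 0 with no filter or quantile normalization, and 0 without each single library. Over all genes the calls were 7 higher and 2 lower with no filter, where 30992 genes were tested, and the genes called lower numbered 354 with the 5 TPM filter, 42 with centring, 56 with quantile normalization, 39 with GC removal and 31 with length removal. Calls over all genes lay between 15 and 38 higher and between 20 and 74 lower without single libraries. The share of calls that were lower was 73.1% as deposited, 49.4% with centring, 54.9% with quantile normalization, 34.5% with GC removal and 45.6% with length removal. The causes were not tested.

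Among the other named genes that were tested, ACTA2 left aside, some signs turned, with none of these genes called in those fits. ACVR1B turned with centring (0.0054), quantile normalization (0.011), GC removal (0.030) and length removal (0.011). STUB1 (0.093) and HGS (0.014) turned with GC removal, and VIM with centring (0.0018). ITGB1 lay between -0.028 and 0.14 without single libraries.

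With the replicate block, 27 genes were called higher and 53 lower over all genes, LTBP3 stayed past the threshold (adjusted p = 0.023), and 0 other pathway genes were called in either direction. The labels do not say that replicate numbers pair the libraries. Deviations from the group means of same-numbered libraries correlated at -0.029, 0.075 and -0.094, and not every library correlated best with its own number. The depth of the libraries is unknown, and 3 libraries per group limit the precision.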
